A study of Mus musculus with 6 samples.

Results

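Endothelial cells (ECs) keep their identity through a small set of transcription factors, and 10 of the genes that encode them were followed here in ECs sorted from mouse kidney. They are the SOXF genes Sox7, Sox17 and Sox18, the ETS genes Erg, Fli1, Ets1 and Elk3, the forkhead genes Foxc1 and Foxo1, and Nr2f2, which encodes the venous factor COUP-TFII. The members were taken by gene symbol, and 10 of the 55401 genes in the count table carried one of these symbols.

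The study compared 3 libraries of kidney ECs of the group RbpjΔEC (written RbpjDEC in the labels, genotype Cre +/-; Rbpj f/f) with 3 libraries of Cre-negative littermates, CTRL (genotype Cre -/-; Rbpj f/f). Both groups were male, carried the floxed Rbpj alleles on a B6 line and received 5 doses of 1.5 mg tamoxifen at 8 weeks of age. Kidneys were taken 12 weeks after induction, and the labels give an age of 21 weeks. CD31+CD45- cells were sorted and their total RNA was sequenced. The Cre recombinase was driven by the Cdh5 promoter, which is active in ECs at large and not in 1 vessel type, and the controls had tamoxifen but no Cre, so an effect of the recombinase itself cannot be told apart from the loss of Rbpj.

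RBPJ is the DNA-binding protein through which cleaved Notch receptors activate their target genes, and Notch signaling favours arterial over venous fate. SOXF and ETS proteins bind the enhancers of many genes that mark ECs, often side by side, and SOXF factors act together with Notch in arterial specification. FOXO1 restrains EC growth and metabolism, FOXC1 takes part in vessel and kidney development, and COUP-TFII holds Notch activity down in veins. The comparison asks whether the messenger RNA of these factors moved in the kidney endothelium that had lost Rbpj.

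None of the 10 genes passed the test for a difference between the genotypes. By edgeR's quasi-likelihood test, adjusted by Benjamini-Hochberg over the 18438 genes tested, 0 of the 10 were below the threshold of 0.05, where 1.13% of all tested genes were. At an unadjusted p under 0.05 it was 1 of the 10, Sox18, against 17.5% of all tested genes. DESeq2 called 0 of the 10 after adjustment and 1 before it, and the shares of all genes it tested were 1.52% and 8.52%. For 0 of the 10 genes did the RbpjΔEC libraries all lie above or all below the CTRL libraries, whereas 23.0% of the tested genes showed such a separation. The estimates were split evenly, 5 higher and 5 lower in RbpjΔEC. The median log2 fold change was 0.00494 over the 10 genes and 0.00721 over the tested genes. The median size of the fold change, whatever its sign, was 0.05 on the log2 scale against 0.18. The median standard error of the log2 fold change was also smaller, 0.0945 against 0.171, and the 10 genes lay at the 64.7th to 98.8th percentile of level. The sets were not matched, so these values do not show that the 10 genes are steadier than others of their level.

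The libraries were deep, and the intervals of the 10 genes were narrow. Total counts were between 39649171 and 47726850 per library, which puts the smallest level counted as detected, 3 reads, at 0.0634 to 0.0749 CPM (counts scaled by library size and edgeR's TMM factors). The lowest count of any of the 10 genes in any library was 829, for Foxc1. The width of the intervals did not follow the counts. The standard error of the log2 fold change was 0.098 for Foxc1 and 0.167 for Sox17, which had at least 5761 counts per library. What set the width was not tested. The 95% interval of the fold change lay within 1.5-fold in either direction for 10 of the 10 genes. It did for 49.1% of the tested genes, which were not matched to the 10 for level or spread. CTRL 1 stood apart, with reads on 33764 genes where the rest had them on 25629 to 26785, so the log2 fold changes of Sox17, Ets1, Elk3 and Nr2f2, which moved most without it, are also given without it, and 0 of the 10 genes passed without it. The labels were checked on Rbpj and on its target Hey1. Rbpj had 29.2 ± 0.964 CPM (SD, n = 3) in CTRL and 28.2 ± 1.86 in RbpjΔEC, but the count covers the whole gene and does not show whether the floxed part was removed. Hey1 had 16.7, 19.9 and 22.6 CPM in CTRL and 11.5, 8.92 and 14.6 in RbpjΔEC, without overlap (log2 fold change -0.76, adjusted p = 0.0722 with edgeR).

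The sequences of these paralogs bear on the counts, since a read shared by family members could not be assigned. The reads were 38 bases long on each side. The longest stretch of identical coding sequence among the SOXF genes was shared by Sox17 and Sox18 and was 29 bases long, shorter than a read. It begins at base 337 of the Sox17 coding sequence and at base 370 of that of Sox18, counted from the first coding base, in an exon of each gene (GENCODE M21, GRCm38, minus strand, chr1:4492611-4492639 and chr2:181670939-181670967). Among the ETS genes the longest was shared by Erg and Fli1, 22 bases long, beginning at coding base 1082 of Erg and base 971 of Fli1. They are shown to let the reader judge how alike these genes are at the length of a read:
Sox17 and Sox18: gagaagcggcccttcgtggaagaggccga
Erg and Fli1: ggaagagcaagcccaacatgaa
Over whole transcripts, 0 of the 38-base words of Sox18 and of Erg occurred in the transcripts of any other gene. The share was 0.246% for Sox7, 0.292% for Fli1, 0.152% for Ets1 and 0.344% for Foxc1, where the other gene was Foxc2. In transcripts of another of the 10 genes occurred 2 words of Fli1, 5 of Ets1 and 7 of Nr2f2, and 0 of the other genes. It was higher for Sox17 (15.4%), Nr2f2 (7.82%), Foxo1 (7.45%) and Elk3 (6.18%). These 4 genes have exons that overlap those of another annotated gene, by 16.8% of the exonic bases of Sox17 (Gm37587, opposite strand), 7.46% of those of Nr2f2 (B130024G19Rik, opposite strand), 7.78% of those of Foxo1 (Gm20402, opposite strand) and 6.95% of those of Elk3 (Cdk17, opposite strand). The strand setting of the counting is not given in the sources used here, so how reads in these stretches were assigned is not known.

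Promoter sequences from RefSeq (GRCm38.p6), 250 bases before to 50 bases after a transcript start, were matched for 5 of the 10 genes in 7 windows: 3 for Erg and 1 each for Elk3, Foxc1, Foxo1 and Nr2f2. The core of the RBPJ site, TGGGAA on either strand, was found in 2 of the 7 windows and in 25.6% of the 32851 windows of this length for all genes. The stretches around both matches are shown because RBPJ is the factor that was removed, with the match in capitals (TTCCCA, the core read on the opposite strand), from 70 bases before the start. The Erg stretch is at chr16:95459335-95459418 on the minus strand, at a start inside the gene, and the Foxc1 stretch is at chr13:31806576-31806659 on the plus strand:
Erg: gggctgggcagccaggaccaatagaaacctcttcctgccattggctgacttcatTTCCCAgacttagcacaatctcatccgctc
Foxc1: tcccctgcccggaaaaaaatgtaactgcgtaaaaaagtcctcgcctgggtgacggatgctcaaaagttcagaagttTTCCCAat
The ETS core CCGGAA was found in 1 of the 7 windows, that of Foxc1, and in 14.9% of all windows. The SOX core ACAAT was in 1 of 7, a window of Erg, against 31.0%, and the nuclear receptor core AGGTCA was in the same Erg window, against 16.3%. The FOXO motif GTAAACA was in 0 of 7 and in 3.65% of all windows. Each motif was searched on both strands, and a match of letters is not evidence of binding.

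The SOXF genes encode HMG-box factors with overlapping roles in arteries and lymphatics. Sox7 (ENSMUSG00000063060.6, chr14:63943673-63950732) had 144, 126 and 166 CPM in CTRL and 148, 137 and 135 CPM in RbpjΔEC. The RbpjΔEC values lay inside the range of the controls. The means were 145 ± 20.0 and 140 ± 7.03 CPM (SD, n = 3), with a log2 fold change of -0.05 (95% interval -0.26 to 0.16, adjusted p = 0.813 with edgeR).

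Sox17 (ENSMUSG00000025902.13, chr1:4490931-4497354), the SOXF gene most tied to arterial fate, had 144, 203 and 208 CPM in CTRL and 197, 213 and 159 CPM in RbpjΔEC. CTRL 1 and RbpjΔEC 3 were low and the other libraries lay close together in both groups. The means were 185 ± 35.9 and 190 ± 28.1 CPM, a log2 fold change of 0.04 (95% interval -0.36 to 0.43, adjusted p = 0.937). Without CTRL 1 the log2 fold change was -0.12. Sox17 had the widest interval of the 10 genes. Its overlapping gene on the opposite strand, Gm37587, was at 5.86, 6.46 and 8.41 CPM in CTRL and 7.34, 5.75 and 6.64 CPM in RbpjΔEC.

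Sox18 (ENSMUSG00000046470.5, chr2:181669836-181671640), which is needed for lymphatic and blood vessel development, had the smallest p of the 10 genes. Its values were 257, 221 and 290 CPM in CTRL and 242, 212 and 193 CPM in RbpjΔEC. The groups overlapped, as CTRL 2 lay below RbpjΔEC 1. The means were 256 ± 34.8 and 215 ± 24.5 CPM, a ratio of 0.842 and a log2 fold change of -0.25 (95% interval -0.49 to -0.0052). The unadjusted p was 0.0461 and the adjusted p 0.274 with edgeR, and the adjusted p was 0.412 with DESeq2. The estimate was negative in 13 of 13 alternative fits. In 1 of them, with no filter on low counts, Sox18 passed the threshold (adjusted p = 0.0485 with edgeR), where 1436 of the 38324 genes tested passed. With single libraries left out the log2 fold change was between -0.35 (without CTRL 2) and -0.15 (without CTRL 3), and the adjusted p between 0.0819 and 0.606.

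Markers of lymphatic endothelium, where SOX18 acts, were summed beside it. They were at 633 to 737 CPM in CTRL and 655 to 689 CPM in RbpjΔEC, mostly from Flt4, which blood ECs also express. Of 6 tested lymphatic markers 0 passed with edgeR, and 4 had an unadjusted p under 0.05, each lower in RbpjΔEC. DESeq2 called 2, and 3 passed with edgeR without CTRL 2. Of the 6, Prox1 and Flt4 did not fall. Prox1 had a log2 fold change of 0.17 and was higher in RbpjΔEC without overlap (adjusted p = 0.543 with edgeR), and Flt4 had 0.01. The part of lymphatic cells in the Sox18 values was not tested.

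**Figure D1:**
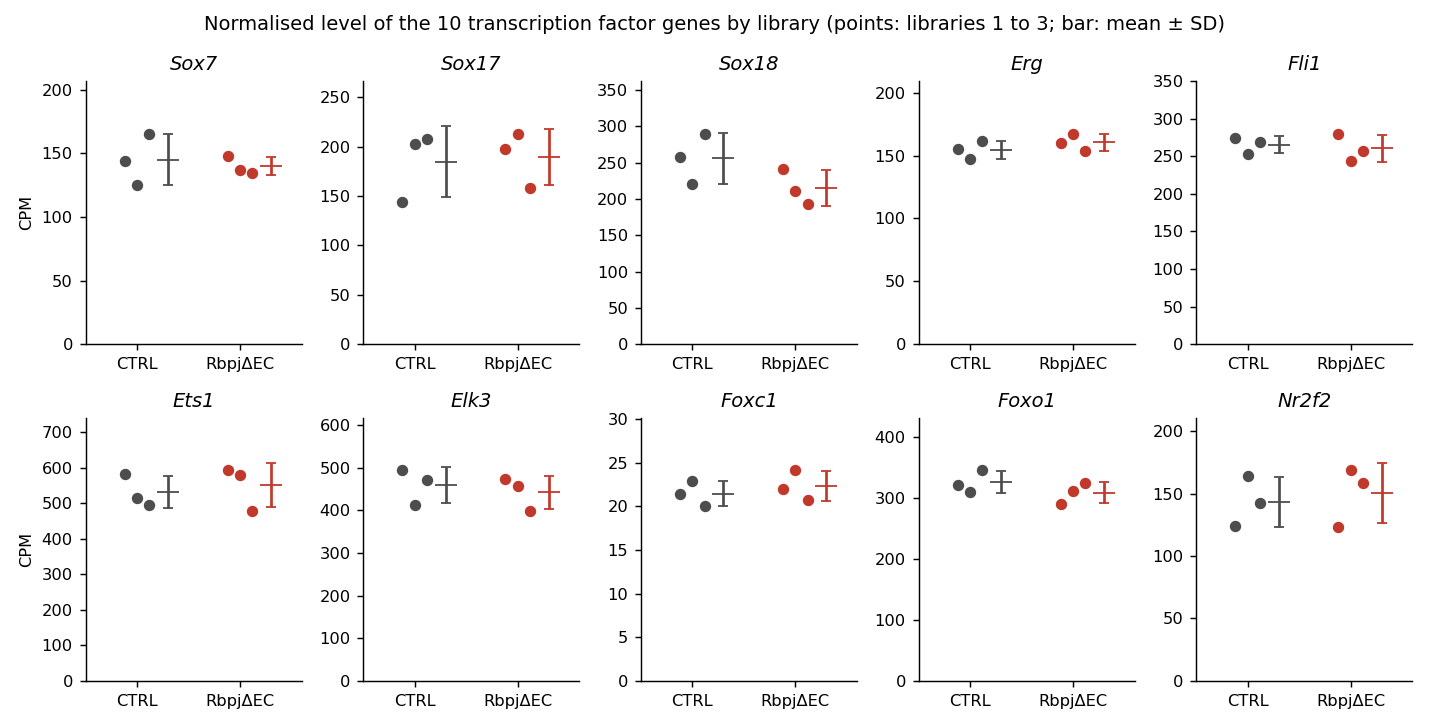
Normalised level (CPM, linear axes from 0, a scale for each gene) of the 10 genes, with a point for each of the 3 CTRL (grey) and 3 RbpjΔEC (red) libraries and the mean ± SD beside them. The groups overlap for each gene, and Sox18 has the lowest RbpjΔEC value relative to its controls (193 CPM in RbpjΔEC 3 against 221 to 290 CPM in CTRL).

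Of the ETS genes, Erg (ENSMUSG00000040732.20, chr16:95359169-95586593), which keeps up the EC programme and vessel stability in adults, had 155, 147 and 161 CPM in CTRL and 160, 167 and 154 CPM in RbpjΔEC. Its highest library was 1.14 times its lowest, the smallest ratio of the 10 genes. The log2 fold change was 0.06 (95% interval -0.09 to 0.20, adjusted p = 0.712).

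Fli1 (ENSMUSG00000016087.13, chr9:32422204-32542861), the closest paralog of Erg, had 274, 253 and 269 CPM in CTRL and 280, 244 and 257 CPM in RbpjΔEC. Both the highest and the lowest value were in RbpjΔEC. The log2 fold change was -0.03 (95% interval -0.19 to 0.13, adjusted p = 0.886). The annotation places 4 short unverified transcripts on the same strand inside the Fli1 gene body, Gm38292, Gm38346, Gm37474 and Gm37082, with exons apart from those of Fli1. The one with the smallest p, Gm37082, had 26.7, 24.6 and 23.0 CPM in CTRL and 31.8, 26.4 and 35.1 CPM in RbpjΔEC (log2 fold change 0.33, unadjusted p = 0.0122, adjusted p = 0.157 with edgeR). The other 3 had log2 fold changes between -0.11 and 0.19.

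Ets1 (ENSMUSG00000032035.16, chr9:32636221-32757820), an ETS factor of growing and activated vessels that lies next to Fli1 on the chromosome, had 583, 516 and 496 CPM in CTRL and 593, 580 and 480 CPM in RbpjΔEC. The lowest library of each group was replicate 3 and the highest replicate 1, and the groups overlapped. The log2 fold change was 0.05 (95% interval -0.15 to 0.26, adjusted p = 0.811), and 0.12 without CTRL 1.

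Elk3 (ENSMUSG00000008398.16, chr10:93247414-93311135), a ternary complex factor that represses transcription until it is phosphorylated, had 493, 412 and 472 CPM in CTRL and 472, 456 and 398 CPM in RbpjΔEC. The spread within each group exceeded the distance between the means. The log2 fold change was -0.05 (95% interval -0.25 to 0.14, adjusted p = 0.792), and -0.0030 without CTRL 1. Cdk17, which overlaps it on the opposite strand, was at 150, 174 and 151 CPM in CTRL and 166, 156 and 173 CPM in RbpjΔEC.

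The forkhead gene Foxc1 (ENSMUSG00000050295.4, chr13:31806633-31812476) had 21.4, 22.9 and 20.0 CPM in CTRL and 22.0, 24.1 and 20.7 CPM in RbpjΔEC. The log2 fold change was 0.05 (95% interval -0.16 to 0.27, adjusted p = 0.814). Its level was higher than that of 64.7% of the tested genes, whereas the other members were above 92.2% to 98.8% of them.

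Foxo1 (ENSMUSG00000044167.6, chr3:52268336-52353221) had 321, 310 and 345 CPM in CTRL and 290, 310 and 324 CPM in RbpjΔEC. Only RbpjΔEC 1 lay below the range of the controls. The log2 fold change was -0.08 (95% interval -0.24 to 0.08, adjusted p = 0.612), negative in 13 of 13 alternative fits and past the threshold in 0. Of the transcripts annotated within the Foxo1 gene, Gm38034 had 9.78, 11.1 and 8.03 CPM in CTRL and 14.2, 10.6 and 16.1 CPM in RbpjΔEC (log2 fold change 0.50, unadjusted p = 0.0131, adjusted p = 0.162 with edgeR). Gm20402, the transcript whose exons overlap those of Foxo1 on the opposite strand, had 2.32, 1.90 and 1.75 CPM in CTRL and 3.19, 3.03 and 2.67 CPM in RbpjΔEC, without overlap (log2 fold change 0.57, unadjusted p = 0.0316, adjusted p = 0.236 with edgeR).

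Nr2f2 (ENSMUSG00000030551.14, chr7:70351944-70366735) had 124, 164 and 143 CPM in CTRL and 123, 169 and 159 CPM in RbpjΔEC. Library 1 was the lowest and library 2 the highest in both groups. The means were 143 ± 20.0 and 150 ± 24 CPM, a log2 fold change of 0.07 (95% interval -0.24 to 0.37, adjusted p = 0.841), and -0.03 without CTRL 1. The transcript that overlaps it on the opposite strand, B130024G19Rik, had 4.81, 6.17 and 6.39 CPM in CTRL and 7.32, 9.06 and 7.41 CPM in RbpjΔEC. Its log2 fold change was 0.45 (unadjusted p = 0.0206, adjusted p = 0.194 with edgeR), and without a known strand setting its reads and those of Nr2f2 cannot be told apart where they overlap. Mural and stromal cells, which also express Nr2f2 and Foxc1, left traces in the sort. Summed mural markers were at 109 to 143 CPM in CTRL and 83.2 to 107 CPM in RbpjΔEC, and stromal markers at 4.63 to 7.08 and 1.54 to 2.92 CPM, with no marker of either list at 0 in every library. Of 11 tested mural markers 3 fell by edgeR (Acta2, Myh11 and Rgs5), and DESeq2 called 7 lower and 1 higher. The pericyte channel genes Kcnj8 and Abcc9 lay the other way, without overlap between the groups, with log2 fold changes of 0.93 and 1.03 (adjusted p = 0.162 and 0.307 with edgeR). Of 3 tested stromal markers 1 fell by edgeR (Pdgfra) and DESeq2 called 2 lower. Without CTRL 1 or without RbpjΔEC 1, 0 markers of either list passed with edgeR, and each of the 4 calls was lost without some other library too. Without RbpjΔEC 3 the counts rose to 8 lower and 1 higher of the mural and 2 lower of the stromal markers, and without CTRL 2 they were 2 and 2. A filter of at least 1 CPM in 3 libraries lost Rgs5 and Myh11 (adjusted p = 0.0523 and 0.0506 with edgeR). Fits without robust estimation lost Rgs5 and Pdgfra (0.0544 and 0.0604), and library size alone in place of TMM lost Rgs5 (0.0553). Their part in the Nr2f2 and Foxc1 values was not tested. In bulk samples fewer cells of a type and less RNA per cell cannot be told apart.

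**Figure D2:**
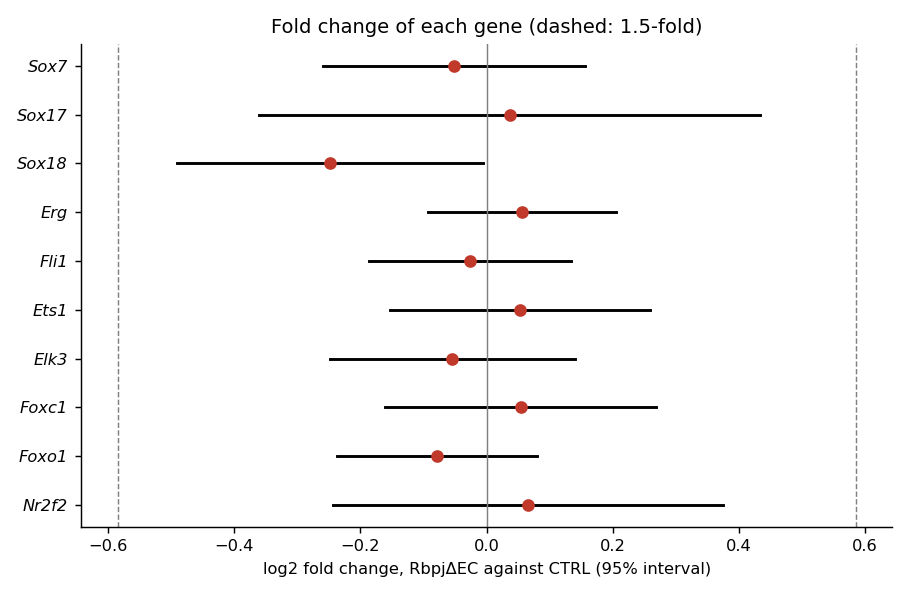
Log2 fold change (RbpjΔEC against CTRL) of the 10 genes from edgeR's fit, with 95% intervals as lines and 1.5-fold changes as dashed lines. Each interval lies inside the dashed lines, and the Sox18 interval (-0.49 to -0.0052) is the only one that does not reach 0.

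The levels of different genes were compared per kilobase of exonic length. Sox18 was highest, with 158 ± 21.5 CPM per kb in CTRL and 133 ± 15.1 in RbpjΔEC. It was followed by Elk3 (101 ± 9.33 and 97.1 ± 8.62), Fli1 (76.1 ± 3.19 and 74.7 ± 5.23) and Ets1 (62.7 ± 5.38 and 65.0 ± 7.31). The ranges of these 4 genes over the 6 libraries did not overlap between neighbours in the order.

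Erg, Sox7, Sox17 and Foxo1 came next, with means over the 6 libraries of 45.4, 43.2, 39.3 and 36.5 CPM per kb. Neighbours among them did not differ beyond their spread, whereas Erg (42.4 to 48.3 CPM per kb) lay above Foxo1 (33.4 to 39.8 CPM per kb) without overlap. Nr2f2 (16.6 ± 2.32 and 17.4 ± 2.78) and Foxc1 (3.67 ± 0.249 and 3.81 ± 0.295) were lowest, each apart from its neighbour in 6 of 6 libraries. The order describes RNA per length from a total RNA library and says nothing of protein.

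**Figure D3:**
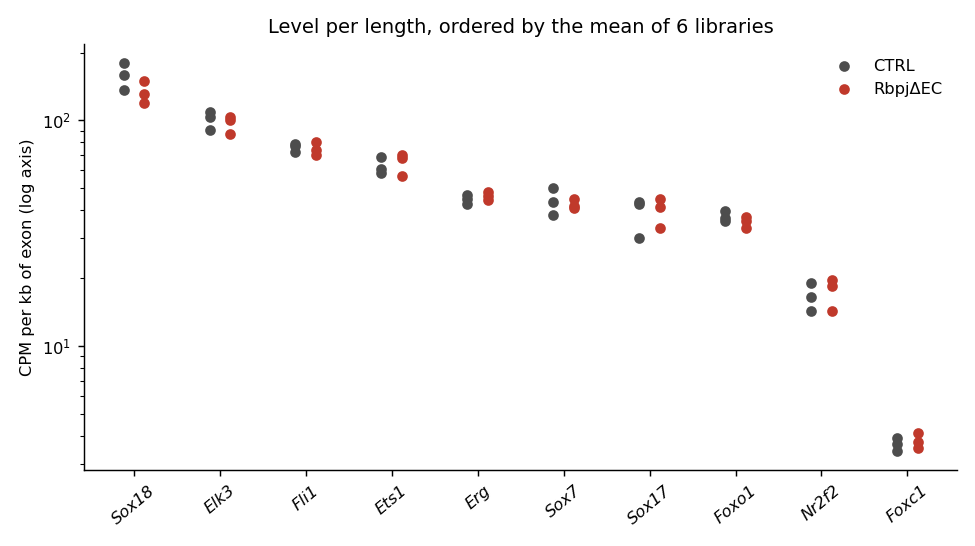
CPM per kb of exonic length (log axis) of the 10 genes in each CTRL (grey) and RbpjΔEC (red) library, ordered by the mean of the 6 libraries. The order runs from Sox18 (119 to 179 CPM per kb) to Foxc1 (3.42 to 4.12 CPM per kb), and among Erg, Sox7, Sox17 and Foxo1 each gene overlaps its neighbour in the order.

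The difference between the group means was smaller than the SD of the controls for 9 of the 10 genes, Sox18 being the other. In CTRL the SD was largest for Sox17, 19.4% of the mean, with 14.8% in RbpjΔEC. In RbpjΔEC it was largest for Nr2f2, 16%, with 14% in CTRL. The smallest SDs were those of Fli1 in CTRL, 4.19%, and of Erg in RbpjΔEC, also 4.19%. Sox17 and Nr2f2 both had their lowest control value in CTRL 1. In RbpjΔEC 3 Sox17 was low and Nr2f2 was not, and in RbpjΔEC 1 Nr2f2 was low and Sox17 was not. RbpjΔEC 3 held the lowest value of 3 of the 10 genes, Sox18, Ets1 and Elk3, and RbpjΔEC 2 the highest of 4.

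Ratios between 2 genes of the same library do not depend on the scaling of the libraries, and 7 were compared. The log2 ratio of Sox7 to Sox18 was -0.84, -0.81 and -0.81 in CTRL and -0.71, -0.62 and -0.52 in RbpjΔEC. The groups did not overlap and the difference was 0.20. The exact permutation test gave a two-sided p of 0.1, the smallest that 3 libraries against 3 allow, and 0.7 after Benjamini-Hochberg adjustment over the 7 ratios, so this test cannot reach the threshold here. The log2 ratio of Sox17 to Sox18 was -0.84, -0.12 and -0.48 in CTRL and -0.29, 0.01 and -0.28 in RbpjΔEC, with overlap (exact permutation p = 0.3, adjusted 0.7).

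For the other ratios the groups overlapped. Erg to Fli1 differed by 0.08 (exact permutation p = 0.4), Ets1 to Erg by -0.00685 (exact permutation p = 0.9) and Sox7 to Sox17 by -0.09 (exact permutation p = 0.8). Foxc1 to Foxo1 differed by 0.13 (exact permutation p = 0.4). Nr2f2 to Sox17, the venous against the arterial factor, differed by 0.02 (exact permutation p = 1), with values from -0.55 to -0.21 in CTRL and from -0.68 to 0.0020 in RbpjΔEC.

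**Figure D4:**
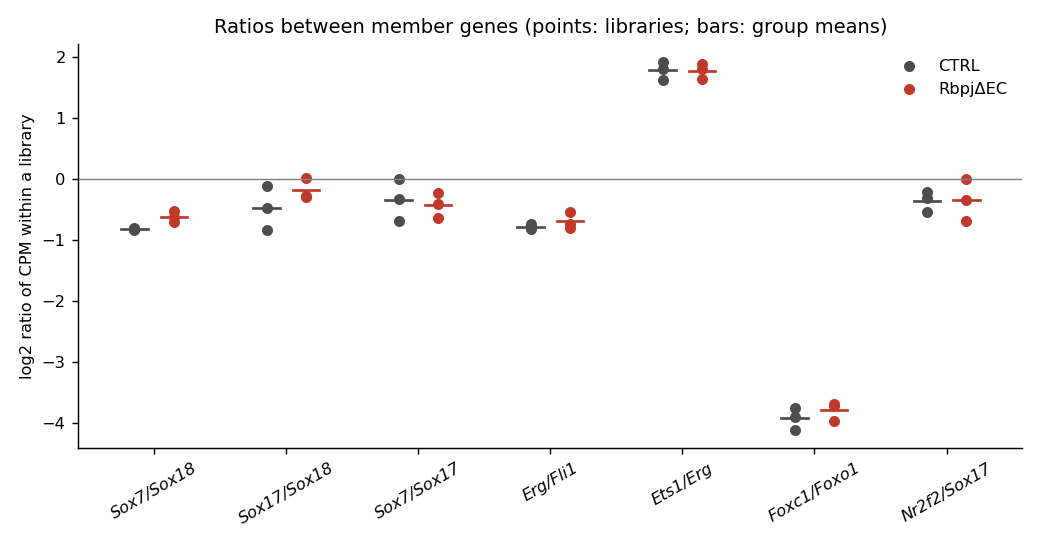
Log2 ratio of the CPM of 2 genes within each library for 7 pairs, with CTRL libraries in grey, RbpjΔEC libraries in red and group means as bars. The groups are apart for Sox7/Sox18 (-0.84 to -0.81 against -0.71 to -0.52) and overlap for the other pairs.

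The rest of the same gene families was examined for comparison. Of 43 tested SOX, ETS, FOX and NR2F genes outside the 10, 0 passed the threshold with edgeR, while 9 had an unadjusted p under 0.05, of which 4 were higher and 5 lower in RbpjΔEC. DESeq2 called 1 SOX and 1 ETS gene, both lower, and with edgeR 1 ETS gene passed without CTRL 2 and 1 SOX gene without RbpjΔEC 3. Among 9 SOX genes the smallest p belonged to Sox6, with 22.0, 27.5 and 30.3 CPM in CTRL and 18.0, 16.0 and 21.5 CPM in RbpjΔEC (log2 fold change -0.53, adjusted p = 0.0922 with edgeR). Its partner Sox5, also a SOXD gene, had a log2 fold change of -0.56 (adjusted p = 0.126). Both were without overlap between the groups.

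Among 15 ETS genes it was Erf, a repressor, with 58.1, 68.9 and 63.6 CPM in CTRL and 73.6, 76.8 and 80.8 CPM in RbpjΔEC (log2 fold change 0.28, adjusted p = 0.110). The epithelial ETS genes Ehf and Elf3 had log2 fold changes of -2.23 and -1.13 at levels below 4 CPM (adjusted p = 0.189 and 0.243). Summed tubule markers were at 289 to 439 CPM in CTRL and 109 to 396 CPM in RbpjΔEC, with none at 0 in every library. Of the 8, Aqp2, Umod, Slc12a1, Cdh16 and Slc12a3 had log2 fold changes between -2.77 and -1.10, and the proximal tubule genes Cubn, Slc34a1 and Lrp2 between 0.98 and 1.28, with Lrp2 at 129 CPM in RbpjΔEC 3 and at 29.2 and 29.0 CPM in RbpjΔEC 1 and 2. Of the 8, 0 passed with edgeR and with DESeq2, 2 had an unadjusted p under 0.05 with edgeR, and 1 passed without RbpjΔEC 3. Their part in the Ehf and Elf3 values was not tested. Among 17 FOX genes the smallest p was that of Foxp4 (log2 fold change -0.95, adjusted p = 0.0992). Nr2f6 and Nr2f1, the relatives of Nr2f2, had log2 fold changes of 0.21 (adjusted p = 0.282) and -0.11 (adjusted p = 0.824).

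Of 21 other transcription factor genes tested that are known from endothelium, 2 changed, 1 in each direction. Tbx3, a T-box repressor, fell from 186, 198 and 185 CPM in CTRL to 151, 122 and 113 CPM in RbpjΔEC (log2 fold change -0.56, adjusted p = 0.0281). Bcl6b, an endothelial relative of the repressor BCL6, rose from 143, 136 and 125 CPM to 247, 278 and 187 CPM (log2 fold change 0.81, adjusted p = 0.0344). Neither call rests on all libraries. The Tbx3 call was lost on leaving out CTRL 1, CTRL 3 or RbpjΔEC 2, with 0.114 as its highest adjusted p. The Bcl6b call was lost on leaving out any CTRL library or RbpjΔEC 1, with 0.147 as the highest.

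Genes known to be driven by these factors were listed too. Of 26 genes bound by SOXF or ETS factors in ECs, 1 fell and none rose past the threshold, while 10 had an unadjusted p under 0.05, 8 of them lower in RbpjΔEC. DESeq2 called 4, each lower, and with edgeR 2 were lower without CTRL 2 or RbpjΔEC 3. The median log2 fold change was -0.15. The gene that fell was Vwf, which encodes von Willebrand factor, from 51.9, 53.7 and 66.8 CPM to 32.9, 35.3 and 34.0 CPM (log2 fold change -0.75, adjusted p = 0.00691, 0.0635 without RbpjΔEC 1). Of 19 tested FOXO1 targets, 0 passed with edgeR and 5 had an unadjusted p under 0.05, 3 lower and 2 higher. DESeq2 called 2, both lower, and 1 passed with edgeR without RbpjΔEC 3. The smallest p was that of Txnip, an inhibitor of thioredoxin (log2 fold change -0.39, adjusted p = 0.0820).

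Venous and arterial genes gave the setting for Nr2f2 and Sox17. Of 10 tested venous genes 1 fell, again Vwf, DESeq2 called 2, and the median log2 fold change was -0.08, with 4 estimates higher and 6 lower. The largest fold change of the list was upward, that of Aplnr (log2 fold change 1.02, adjusted p = 0.424 with edgeR). It had 134, 95.6 and 99.6 CPM in CTRL and 222, 352 and 94.0 CPM in RbpjΔEC, with overlap. Of 16 arterial genes 2 fell, the Notch ligand gene Jag1 (log2 fold change -0.54, adjusted p = 0.0368) and Acvrl1, which encodes the BMP receptor ALK1 (log2 fold change -0.31, adjusted p = 0.0468), and DESeq2 called 8, each lower. At an unadjusted p under 0.05 with edgeR 10 arterial genes were lower and 1 was higher, Dll4, which encodes a Notch ligand (log2 fold change 0.22, without overlap, adjusted p = 0.162). The median over the arterial genes was -0.33, beside -0.05 for the SOXF genes and 0.07 for Nr2f2. Whether these lists differ from the 10 genes was not tested. The Jag1 call was lost on leaving out CTRL 3, RbpjΔEC 1 or RbpjΔEC 2, and the Acvrl1 call on leaving out any of these or CTRL 1, with library size alone in place of TMM (adjusted p = 0.0714) and without robust estimation (adjusted p = 0.0571). The arterial count was 0 without CTRL 3, RbpjΔEC 1 or RbpjΔEC 2, 1 without CTRL 1, 3 without CTRL 2 and 5 without RbpjΔEC 3, each lower. Summed endothelial markers, not all of them shared by each EC type, were at 26491 to 29294 CPM in CTRL and 24126 to 24905 CPM in RbpjΔEC. Of 13 tested, 0 passed by edgeR and 5 by DESeq2, each lower, and 6 had an unadjusted p under 0.05 by edgeR. The edgeR count was 1 without CTRL 1 or CTRL 2 and 2 without RbpjΔEC 3. Most of these genes are also among the SOXF and ETS targets and some among the venous genes, so these lists are not separate results. Immediate-early genes, which respond to tissue dissociation among other stimuli, were at 6007 to 7091 CPM in CTRL and 8053 to 9666 CPM in RbpjΔEC, where 7 of 14 rose by edgeR (Egr1, Btg2, Egr3, Atf3, Fos, Junb and Ier2) and 11 by DESeq2. Without CTRL 3 the count was 0, without CTRL 1, RbpjΔEC 1 or RbpjΔEC 2 it was 1, and without CTRL 2 or RbpjΔEC 3 it was 11. Without robust estimation it was 5, with Fos, Junb and Ier2 lost (adjusted p = 0.0557, 0.0559 and 0.0601 with edgeR). Of 4 tested myeloid markers 1 rose, Cd68, which encodes a lysosomal protein, from 6.98, 12.3 and 10.7 CPM to 22.1, 24.98 and 25.1 CPM (log2 fold change 1.27, adjusted p = 0.0154 with edgeR, up to 0.0917 with single libraries left out). The call was lost without CTRL 3, RbpjΔEC 1 or RbpjΔEC 2. The other 3 myeloid markers had log2 fold changes between -1.57 and -0.21. Of 3 tested markers shared by leukocytes 0 passed with edgeR, 3 were lower at an unadjusted p under 0.05, DESeq2 called 1, and 2 passed without CTRL 2. The 4 leukocyte markers of the list, tested or not, summed to 2.75 to 8.90 CPM in CTRL and 1.76 to 2.82 CPM in RbpjΔEC. The listed lymphocyte markers, with Cd3e at 0 in every library, summed to 0.829 to 1.17 and 0.310 to 0.649 CPM. The part of these cells and of the immediate-early genes in the values above was not tested.

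**Figure D5:**
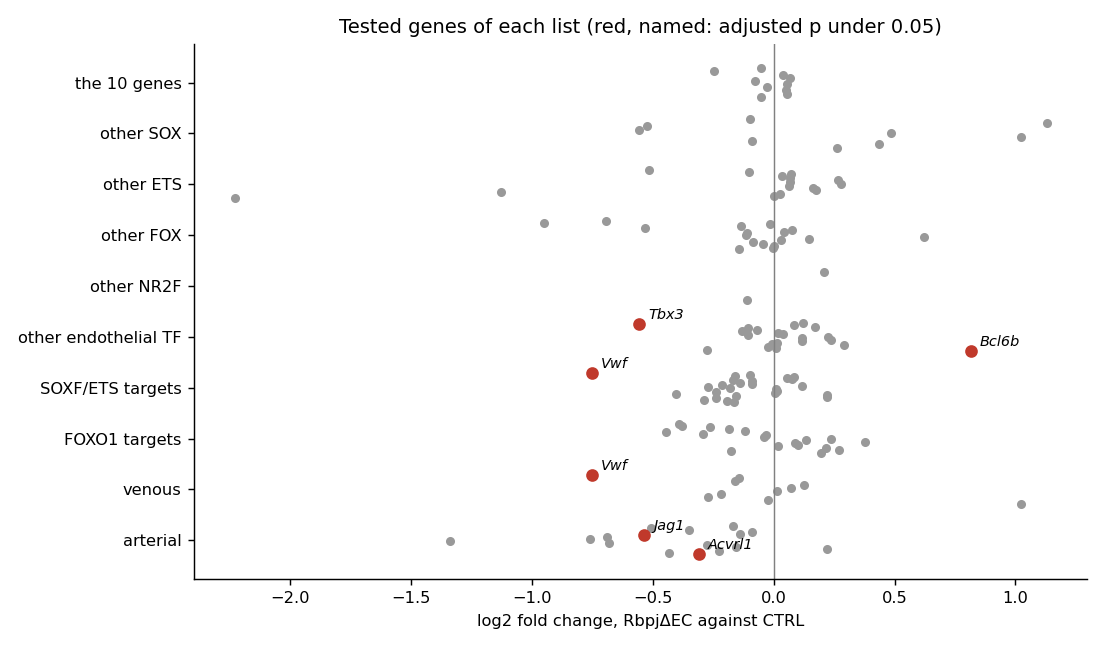
Log2 fold change (RbpjΔEC against CTRL) of every tested gene in 10 lists, with genes past an adjusted p of 0.05 in red and named, and the vertical position within a list only spreading the points. The 10 genes lie between -0.25 and 0.07, with none in red, while Tbx3, Bcl6b, Vwf, Jag1 and Acvrl1 are in red in other lists.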

How the data were processed

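From the sorted ECs the authors made total RNA libraries with a stranded kit, and the 6 libraries shared 1 sequencing run and went through nf-core/rnaseq. The submitters' processing notes name Trim Galore 0.6.4, STAR 2.6.1d and featureCounts of Subread 1.6.4 with GRCm38.p6. The deposited values are raw read counts per gene, without normalization, so levels depend on depth until they are scaled. The labels give each library as a sample of its own without saying that it is 1 mouse, and p-values measure the spread between these libraries.

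Counts were normalized with TMM, filtered with filterByExpr and compared with edgeR 4.0.16 (quasi-likelihood test with robust estimation, limma 3.58.1, R 4.3.3). DESeq2 1.42.0 was an alternative. The procedure was tested on simulated data. With 200 genes changed it recovered 189 and also called 25 of the 17825 others, and with none changed it called 6 of 18044. Calls close to the threshold are to be read with this in mind. Lengths, positions and transcripts came from GENCODE M21, while the authors counted on M25. Ratios used a prior count of 0.5. The 10 genes and the lists were chosen with earlier results of these data known. Every one of the 10 genes was named, and of each other list the genes past the threshold or otherwise at most the 3 with the smallest p, with Rbpj, Hey1 and genes overlapping the 10. Kcnj8, Abcc9, Dll4, Aplnr, Prox1, Flt4, Cd3e and the tubule markers were named outside this rule, after their values were seen. Alternatives covered normalization, filter, test, replicate block and each library left out.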

Additional observations from a re-analysis of the deposited data

How the results depend on the processing

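The number of the 10 genes past the threshold was 0 in each alternative fit but 1: with no low-count filter it was 1, Sox18. Over all genes the calls moved from 209 of 18438 tested to 1436 of 38324 without that filter, and to 584 of 38324 with the DESeq2 Wald test. Without the filter the log2 fold change of Sox18 was -0.24 against -0.25, and its standard error was 0.077 against 0.11. With single libraries left out the calls were between 21 and 700 (21 without RbpjΔEC 1 and 24 without CTRL 3, 700 without CTRL 2). With library size alone in place of TMM there were 241 calls, 159 higher and 82 lower against 106 and 103, and the median log2 fold change of all genes was 0.05. The number of the 10 genes without overlap between the groups was between 0 and 2 with single libraries left out: 2 without CTRL 2, Sox18 and Elk3, where 39.4% of the tested genes did not overlap, and 1 without RbpjΔEC 1, Sox18, where it was 29.6%.

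The replicate numbers are shared by the groups, and the labels do not say whether they pair the samples. Over all genes the correlations of same-numbered libraries were 0.0231, 0.00916 and 0.00544, which gives no sign of pairing but cannot exclude it for part of the genes. With the replicate block 344 genes and 0 of the 10 passed, and the standard error of Nr2f2 was 0.076 against 0.135. The block moved the arterial calls from 2 to 5, without Acvrl1 (adjusted p = 0.0579 with edgeR), and the immediate-early calls from 7 to 11. Where the main fit had 0, it called 1 of the SOX genes outside the 10, 1 FOXO1 target, 1 lymphatic and 1 tubule marker. It also called 2 endothelial markers, and each of these calls was lower in RbpjΔEC.

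The sign of the log2 fold change was kept in 13 of 13 alternatives for Sox18, Erg and Foxo1. It turned for Fli1 with library size alone (0.017). With single libraries left out it ran from 0.016 (without CTRL 2) to 0.086 (without CTRL 3) for Erg, -0.12 (without CTRL 2) to -0.037 (without RbpjΔEC 1) for Foxo1, -0.15 to 0.052 for Sox7, -0.12 to 0.15 for Sox17, -0.082 to 0.019 for Fli1, -0.0038 to 0.14 for Ets1, -0.13 to 0.017 for Elk3, -0.0065 to 0.10 for Foxc1 and -0.034 to 0.19 for Nr2f2. The log2 ratio differences ran from -0.27 to 0.082 for Sox7/Sox17, -0.086 to 0.060 for Ets1/Erg and -0.15 to 0.19 for Nr2f2/Sox17, and from 0.15 to 0.25 for Sox7/Sox18, 0.11 (without CTRL 1) to 0.47 (without CTRL 2) for Sox17/Sox18, 0.0079 (without RbpjΔEC 2) to 0.14 (without RbpjΔEC 1) for Erg/Fli1 and 0.041 (without CTRL 3) to 0.22 (without RbpjΔEC 3) for Foxc1/Foxo1. The cause was not tested. Each of the 10 genes had at least 829 counts in each library.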
